A study of Mus musculus with 6 samples.

Results

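Cadherins, catenins and nectins build the adherens junction, the belt by which epithelial cells hold on to each other. A classical cadherin spans the cell membrane, binds a like cadherin on the neighbouring cell by its outer part and holds catenins by its inner tail. β-catenin sits on the end of that tail and brings in αE-catenin, which reaches the actin cytoskeleton, while p120-catenin binds nearer the membrane and keeps the cadherin at the surface. Nectins are immunoglobulin-like adhesion molecules that make contacts of their own and connect to the same belt through afadin. In the mammary duct, E-cadherin is best known from luminal cells and P-cadherin from the myoepithelial cells that surround them.

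The 10 genes described here were taken by symbol from the deposited count table, which lists 34590 symbols. They are the cadherin genes Cdh1, Cdh2, Cdh3, Cdh10, Cdh11 and Cdh13, the catenin genes Ctnna1, Ctnnb1 and Ctnnd1, and the nectin 1 gene under its older symbol Pvrl1. All 10 were found, and 10 of 10 passed the filter on low counts that left 17345 genes for testing.

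RNA-seq was done on 6 libraries from 3 host mice. Each host was a WT female whose inguinal fat pads (gland number 4) had been cleared of their own epithelium. WT.EGFP+ grafts always took the left gland and Adamts18-/-.EGFP+ grafts the right, and genotype cannot be told apart from body side. The mutant allele lacks exons 8 and 9 of Adamts18, a gene for a secreted protease, in every cell of the donor, and donor cells of both genotypes carry EGFP under the chicken β-actin promoter. The Adamts18-/- and EGFP lines were kept on a C57BL/6JOlaHsd background, the strain of the hosts is not given in the sources used here, the grafts came from 3 donors in 3 independent experiments, and the age of the grafts at RNA extraction is not given in the sources used here. The comparison asks which transcripts differ in a host when the grafted epithelium lacks Adamts18.

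Total counts ranged from 53875123 to 71595924, and a count of 3, the limit that a count of 0 allows, was worth 0.043 to 0.0574 CPM (the CPM scale, reads divided by the TMM-corrected library size). Adamts18 itself had 3.61, 9.92 and 6.80 CPM in the WT gland of mouse 1, 2 and 3, respectively, against 2.75, 4.87 and 3.29 CPM in the Adamts18-/- gland. The Adamts18-/- gland was the lower of the pair in each mouse, although the count is for the whole gene and does not single out the deleted exons. The hosts were WT, and the paper reports stromal Adamts18 transcripts in WT fat pads that carried Adamts18-/- epithelium. Where the reads left in the mutant glands came from was not tested. The labels describe GFP+ mammary epithelial cells sorted by flow cytometry, whereas the paper speaks of profiled glands. The pan-epithelial markers were present (24 of 24 detected, summed 1248 to 2419 CPM), but so were markers of cells that such a sort would remove. The 10 adipocyte markers summed to 8488 to 19670 CPM, the 10 fibroblast markers to 9597 to 13350 CPM and the 10 endothelial markers to 783.3 to 1321 CPM, with none at 0. The libraries are therefore called glands here, and in such mixed RNA fewer cells of a type and less RNA per cell cannot be told apart.

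The coding ends of 5 of the cadherins are shown because this is the stretch that carries the β-catenin-binding end of a classical cadherin, and because T-cadherin differs from the others exactly there. The sequences are the last 90 coding bases, 5′ to 3′ on the coding strand, from GENCODE M21 transcripts of GRCm38, with the stop codon in capitals.
Cdh1: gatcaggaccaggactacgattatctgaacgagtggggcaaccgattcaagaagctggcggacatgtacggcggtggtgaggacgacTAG
Cdh3: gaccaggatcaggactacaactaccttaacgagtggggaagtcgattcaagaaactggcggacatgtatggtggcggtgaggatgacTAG
Cdh10: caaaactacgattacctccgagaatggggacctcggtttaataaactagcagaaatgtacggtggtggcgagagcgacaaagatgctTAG
Cdh11: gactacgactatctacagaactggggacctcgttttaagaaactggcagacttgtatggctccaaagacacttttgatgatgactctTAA
Cdh13: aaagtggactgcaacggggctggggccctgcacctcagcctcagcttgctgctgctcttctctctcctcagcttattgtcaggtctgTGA
The Cdh1 stretch lies at chr8:106668526-106668615 (+), that of Cdh3 at chr8:106555361-106555450 (+), that of Cdh10 at chr15:19013593-19013682 (+) and that of Cdh11 at chr8:102634314-102634403 (-), each inside 1 exon, while the Cdh13 stretch crosses an exon boundary.

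In a global alignment, Cdh1 and Cdh3 were identical at 84.4% of the aligned columns of this stretch. Cdh10 and Cdh11, which are type II cadherins, shared 64.0% with each other, and 56.6% to 60.8% with Cdh1 or Cdh3. Cdh13 shared 42.5% to 52.0% with the other 4. Its product, T-cadherin, has no catenin-binding tail and is held in the membrane by a lipid anchor. The whole coding sequence is 2655 bases long for Cdh1 and 2145 bases for Cdh13, the longest and the shortest of the 5.

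Compared per kilobase of annotated exon, the catenins were the most abundant members. The mean level over the 3 WT glands was 105.4 CPM per kb for Ctnnb1, 51.6 ± 5.38 for Ctnna1 and 34.7 ± 3.24 for Ctnnd1 (SD, n = 3). Cdh1 was the highest cadherin, at 32.4 ± 10.6 CPM per kb, and its range reached across that of Ctnnd1. Pvrl1 (7.59 ± 1.83) followed, with the means of Cdh3 (5.74 ± 1.82) and Cdh13 (5.61 ± 1.58 CPM per kb) below it. The ranges of these genes over all glands overlapped. Cdh11 (3.21 ± 0.885) and Cdh2 (1.63 ± 0.571 CPM per kb) came next, and Cdh10 was the lowest, at 0.155 ± 0.0915 CPM per kb. With the length of the longest transcript in place of all annotated exons, Cdh13 stood above Pvrl1 and Cdh3, at 13.8 ± 3.88 CPM per kb in the WT glands.

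Of the 10 genes, Cdh3, Cdh10 and Pvrl1 were lower in the Adamts18-/- glands, none was higher and 7 did not pass the thresholds. The thresholds were those of the study, a log2 fold change beyond -0.32 or 0.32 (a fold of 0.8 or its inverse) together with p under 0.05 before adjustment, the p coming here from the quasi-likelihood test of edgeR fitted with host mouse as a blocking term. Over all tested genes 1.84% were lower and 1.17% higher by the same rule. After Benjamini-Hochberg adjustment over all 17345 genes, no gene in the table passed 0.05 by edgeR (670 had an unadjusted p under 0.05, and DESeq2 called 71 by adjusted p), and all 10 members had an adjusted p of 0.987. The sign of the difference was the same in all 3 mice for 7 of 10 members, against 23.4% of all tested genes. The WT and Adamts18-/- values overlapped in each of the 10, so that 0 of 10 stood apart, against 4.94% of all tested genes. The median log2 fold change (Adamts18-/- minus WT) over the members was -0.20, beside 0.00065 over all tested genes.

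**Figure D1:**
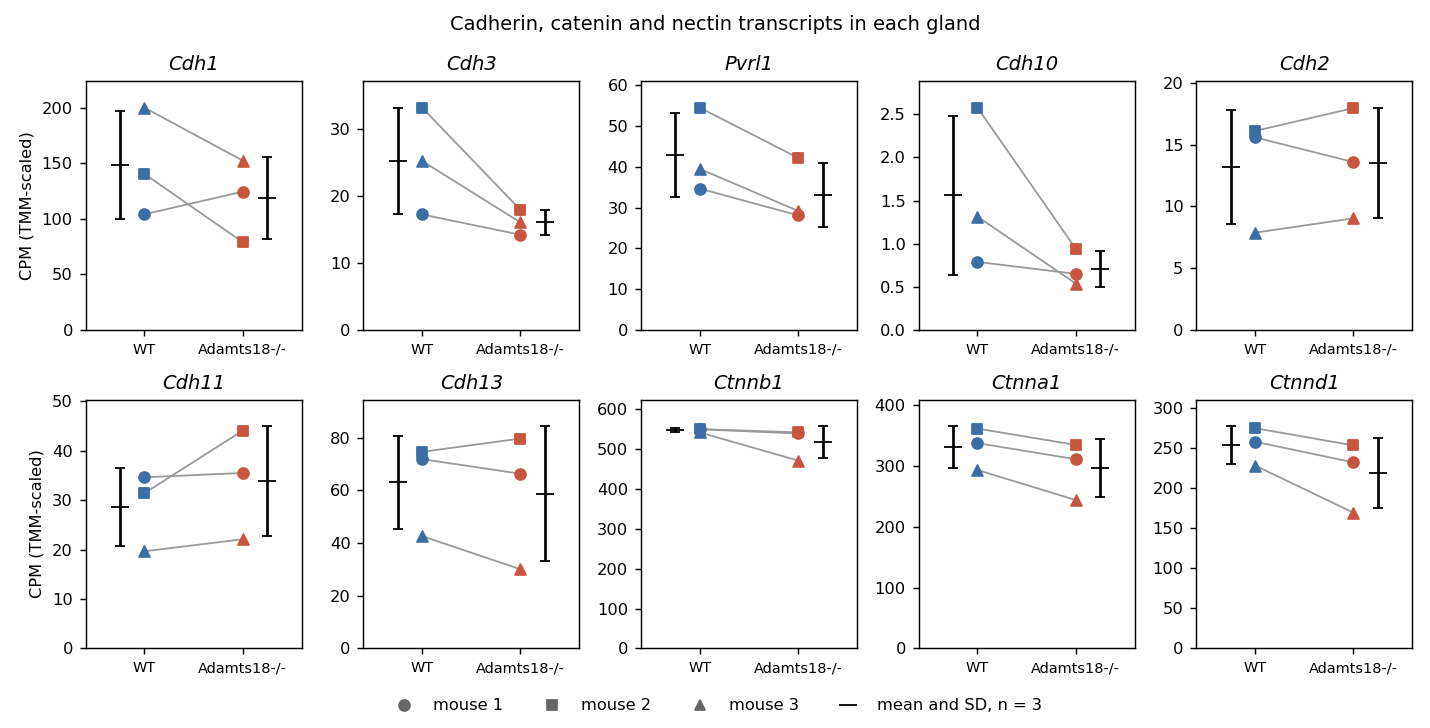
TMM-scaled CPM of each of the 10 genes (vertical axis, starting at 0) in the WT gland (blue) and the contralateral Adamts18-/- gland (red) of each mouse, joined by a line, with the mean and SD of the 3 glands at the side. The lines of Cdh3, Pvrl1 and Cdh10 go down in all 3 mice, those of Cdh1 cross, and the lines of mouse 3 (triangles) lie apart for Cdh2, Cdh11 and Cdh13.

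Cdh1 encodes E-cadherin, the main cadherin of epithelia. From mouse 1 to mouse 3, the WT glands held 104, 140.3 and 199.9 CPM and the Adamts18-/- glands 124.4, 78.9 and 152.3 CPM, the order of mice kept for all values that follow. The mutant gland was the higher of the pair in mouse 1 and the lower in mice 2 and 3, and the groups overlapped widely. The fitted log2 fold change was -0.32 (standard error 0.22, 95% interval -0.90 to 0.25, unadjusted p = 0.205 by edgeR), the log2 differences within mice 1, 2 and 3 being 0.26, -0.83 and -0.39. Without mouse 1 it passed the thresholds (log2 fold change -0.61, unadjusted p = 0.0220 by edgeR). Without mouse 2 the log2 fold change was -0.068 (unadjusted p = 0.746 by edgeR). Without mouse 3 it was -0.28 (unadjusted p = 0.328 by edgeR), so that the estimate depended on the mice included.

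In each mouse the difference in Cdh1 had the sign of the pan-epithelial median. The median log2 difference of the 24 pan-epithelial genes, a list that does not hold Cdh1, was 0.15, -0.74 and -0.48 in mice 1, 2 and 3. All 24 had a negative fitted log2 fold change and 6 were lower by the thresholds, among them Krt19 (443 against 287 CPM, log2 fold change -0.62), a luminal keratin. Reads of Cdh1 per read of Epcam, which encodes another epithelial adhesion molecule, were 0.889, 0.879 and 1.11 in the WT glands and 0.874, 0.945 and 1.19 in the Adamts18-/- glands. That ratio differed within a pair by -0.02, 0.11 and 0.09 on the log2 scale, and mouse 3 was above mice 1 and 2 in both genotypes. Per read of Krt8, a luminal keratin, the log2 ratio of Cdh1 differed by more, 0.43, -0.22 and 0.13. The 3 genes most like Cdh1 over the 6 libraries, by Pearson correlation of log2 CPM among 12225 genes, were Ap1m2 (r = 0.994, Spearman rho = 0.943), Bspry (r = 0.992, rho = 1) and Grhl1 (r = 0.992, rho = 1). Ap1m2, an adaptor subunit that sorts membrane proteins in epithelial cells, and Grhl1, an epithelial transcription factor, are also on the pan-epithelial list. These 6 libraries come in pairs from 3 mice, and the correlations are descriptions.

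Cdh3 encodes P-cadherin, the cadherin of basal and myoepithelial cells. It was at 17.2, 33.1 and 25.2 CPM in the WT glands and at 14.2, 17.9 and 16.0 CPM in the Adamts18-/- glands. The mutant gland was the lower of the pair in all 3 mice, though the WT gland of mouse 1 fell among the mutant values. The mean was 25.2 ± 7.96 CPM in WT and 16.0 ± 1.86 CPM in Adamts18-/- glands (SD, n = 3). The log2 fold change was -0.61 (standard error 0.14, 95% interval -0.98 to -0.24, unadjusted p = 0.00876 by edgeR), with -0.28, -0.89 and -0.65 within the mice. Genotype took 52.2% of the variance of its log2 CPM and mouse 38.9%, against medians of 5.98% and 67.3% over all tested genes.

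Most listed markers of myoepithelial cells were lower as well. Of the 10 on the list, 8 were lower by the thresholds and none was higher, with a median log2 fold change of -0.50, and their summed level was 1126, 1954 and 1124 CPM in WT and 908.5, 1384 and 738.3 CPM in Adamts18-/- glands. Acta2, the smooth muscle actin by which these cells contract, was the most abundant (466.7 against 342.8 CPM, log2 fold change -0.45, unadjusted p = 0.00922 by edgeR). Krt14 and Krt17, keratins of basal cells, had log2 fold changes of -0.56 and -0.61. Trp63, the transcription factor of basal epithelium, had -0.37. The contractile genes Myh11, Cnn1 and Mylk had -0.45, -0.63 and -0.34, and the oxytocin receptor gene Oxtr had -0.57. Which cells of these mixed glands Acta2 and the contractile genes came from was not tested. Within mice 1, 2 and 3 the median of the list was -0.29, -0.53 and -0.65 and Cdh3 was at -0.28, -0.89 and -0.65. The genes of the list were not all alike in mouse 1. There Krt5 (log2 difference 0.14), Krt14 (0.02) and Lgr6 (0.03) were slightly higher in the mutant gland, and the other listed genes were lower.

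Set against myoepithelial genes in the same library, the difference in Cdh3 depended on the gene chosen. Reads of Cdh3 per read of Krt14 were 0.311, 0.305 and 0.325 in the WT glands and 0.253, 0.266 and 0.416 in the Adamts18-/- glands, lower in mice 1 and 2 and higher in mouse 3. Per read of Krt5 the log2 ratio differed by -0.42, -0.04 and 0.24. Per read of Trp63 the ratio was 0.564, 0.653 and 0.810 in WT and 0.506, 0.497 and 0.722 in Adamts18-/- glands, the lower of the pair in each mouse. When the libraries were scaled to the 10 myoepithelial genes in place of all genes, the log2 fold change of Cdh3 was -0.11 (standard error 0.22, unadjusted p = 0.610 by edgeR). Scaled to the pan-epithelial genes it was -0.24 (standard error 0.36, unadjusted p = 0.505 by edgeR). The part of the myoepithelial share in the lower Cdh3 level was not tested beyond these values.

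Among the genes most like Cdh3 over the 6 libraries were Chrnb1 (r = 0.995), which encodes a subunit of the muscle acetylcholine receptor, and Ankrd13b (r = 0.993), each with a Spearman rho of 0.943. Neither was among the 10 genes tied at the top by Spearman rho, so the choice rests on the measure of likeness.

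Pvrl1 encodes nectin 1. It was at 34.7, 54.5 and 39.5 CPM in the WT glands and at 28.1, 42.2 and 29.2 CPM in the Adamts18-/- glands. The 3 mice differed widely in level, but the step from WT to mutant was close to the same in each, -0.30, -0.37 and -0.44 on the log2 scale. The mean was 42.9 ± 10.4 CPM in WT and 33.2 ± 7.85 CPM in Adamts18-/- glands (SD, n = 3). The log2 fold change was -0.37 (standard error 0.072, 95% interval -0.56 to -0.18, unadjusted p = 0.00445 by edgeR). After mouse (67.4% of the variance) and genotype (31.9%), 0.7% of the variance was left. Without the pairing of glands by mouse, Pvrl1 did not pass (log2 fold change -0.37, unadjusted p = 0.167 by edgeR). Pvrl1 was the lower in the mutant gland of mouse 1 too, where the pan-epithelial median was positive. The myoepithelial median was negative in each mouse as Pvrl1 was, at -0.29, -0.53 and -0.65. Reads of Pvrl1 per read of Epcam differed by -0.59, 0.57 and 0.05 on the log2 scale. Scaling to the pan-epithelial genes put it at -0.0012 on the log2 scale (standard error 0.36, unadjusted p = 0.997 by edgeR), and scaling to the myoepithelial genes at 0.13.

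Cdh10 encodes a type II cadherin best known from the brain, and was barely transcribed here. The WT glands held 55, 158 and 74 reads (0.789, 2.58 and 1.31 CPM) and the Adamts18-/- glands 34, 57 and 33 reads (0.650, 0.941 and 0.537 CPM). The mutant gland was the lower in each pair, by little in mouse 1, and the WT gland of mouse 2 was far above the rest. The log2 fold change was -1.03 (standard error 0.31, 95% interval -1.83 to -0.22, unadjusted p = 0.0228 by edgeR), with -0.27, -1.42 and -1.24 within the mice. It did not pass without mouse 2 (-0.79, unadjusted p = 0.122 by edgeR), without mouse 3 (-0.91, unadjusted p = 0.0520) or without the block (-1.13, unadjusted p = 0.0612).

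**Figure D2:**
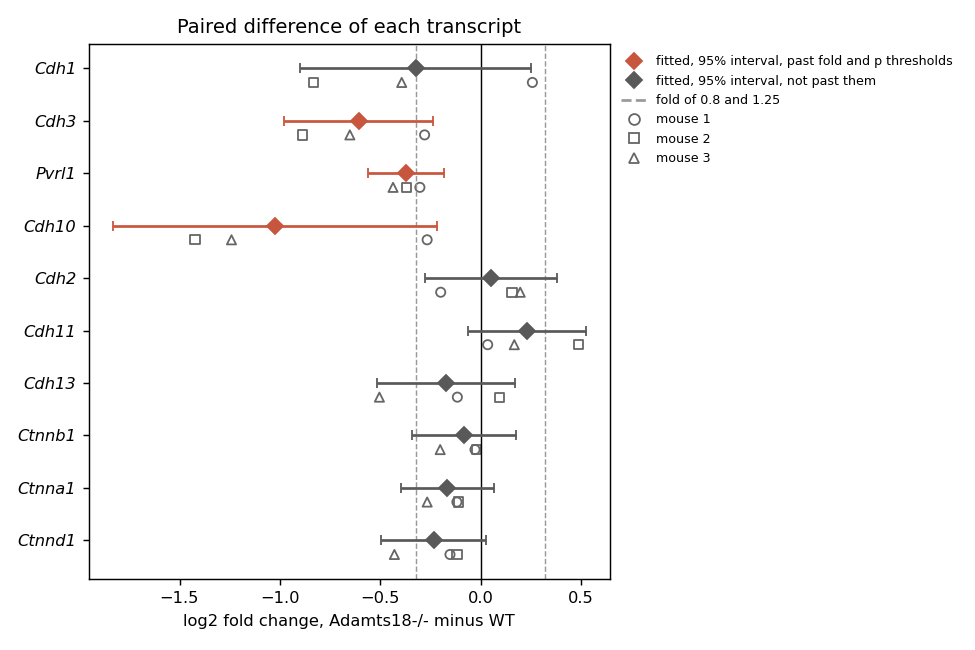
log2 fold change (horizontal axis, Adamts18-/- minus WT) of each gene from the edgeR fit with its 95% interval (diamonds), with the difference within each mouse below it (open symbols) and dashed lines at the log2 limits of -0.32 and 0.32. The intervals of Cdh3, Pvrl1 and Cdh10 (red) lie below 0, the 3 mice are closest together for Pvrl1 (-0.30 to -0.44), and for Cdh1 mouse 1 lies on the other side of 0.

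Cdh11, Cdh2 and Cdh13 are cadherins of cells outside the epithelium, and none of them passed the thresholds. Cdh11 encodes a cadherin of fibroblasts and other mesenchymal cells. It was at 34.6, 31.4 and 19.7 CPM in the WT glands and at 35.5, 44.1 and 22.1 CPM in the Adamts18-/- glands. It was the only member whose difference was positive in all 3 mice, by 0.04, 0.49 and 0.17, with a fitted log2 fold change of 0.23 (standard error 0.11, 95% interval -0.06 to 0.53, unadjusted p = 0.0981 by edgeR). The fibroblast list had 0 of 10 genes past the thresholds and a median log2 fold change of -0.07, with 0.06, 0.35 and -0.52 within the mice. Its most abundant gene, Col3a1, a fibrillar collagen, stood at 2824 to 3427 CPM in WT and 3416 to 5198 CPM in Adamts18-/- glands. Reads of Cdh11 per read of the collagen gene Col1a1 differed within the pairs by 0.08, 0.11 and -0.07 on the log2 scale. Per read of Pdgfra, a receptor gene of fibroblasts on the same list, the log2 ratio differed by -0.01, 0.32 and 0.66, so that the outcome depended on the fibroblast gene.

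Cdh2 encodes N-cadherin, known from neural, muscle and mesenchymal cells. It stood at 15.6, 16.1 and 7.87 CPM in the WT glands and at 13.6, 17.95 and 9.03 CPM in the Adamts18-/- glands. The glands of mouse 3 were the lowest of each group, and mouse took 95.6% of its variance against 0.346% for genotype. The log2 fold change was 0.05 (standard error 0.13, 95% interval -0.28 to 0.38, unadjusted p = 0.699 by edgeR). There were 6.67, 8.71 and 25.4 reads of Cdh1 for each read of Cdh2 in the WT glands and 9.16, 4.39 and 16.9 in the Adamts18-/- glands, higher in mouse 1 and lower in mice 2 and 3.

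Cdh13 encodes T-cadherin, which binds adiponectin and is known from blood vessels. It was at 71.8, 74.6 and 42.6 CPM in the WT glands and at 66.3, 79.7 and 30.1 CPM in the Adamts18-/- glands. Mouse 3 again had the lowest gland of each group, and the log2 fold change was -0.17 (standard error 0.13, 95% interval -0.52 to 0.17, unadjusted p = 0.247 by edgeR). Within the mice it differed by -0.12, 0.09 and -0.50, beside -0.23, 0.0031 and -0.35 for the median of the 10 endothelial genes and -0.21, 0.17 and -0.34 for that of the 10 adipocyte genes. Neither list had a gene past the thresholds. Pecam1, an adhesion molecule of endothelium and the most abundant on its list, stood at 154.6 to 239.2 CPM in WT and 170.2 to 230.4 CPM in Adamts18-/- glands, and Cfd, the adipocyte protease adipsin, at 4491 to 7182 CPM and 3450 to 7187 CPM.

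The genes most like Cdh11 by Pearson correlation were Pdpr (r = 0.997), Bnip2 (r = 0.994) and Ncoa1 (r = 0.993), the last a coactivator of nuclear receptors. Those most like Cdh13 were Npr2 (r = 0.9997), which encodes a natriuretic peptide receptor, Jam2 (r = 0.9996), an adhesion molecule of endothelial junctions, and Adh1 (r = 0.999), an alcohol dehydrogenase. As many as 265 genes ordered the 6 libraries exactly as Cdh13 did, and 41 as Cdh11 did. The glands of mouse 3 held the most Cdh1 and the least Cdh11 of each group.

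**Figure D3:**
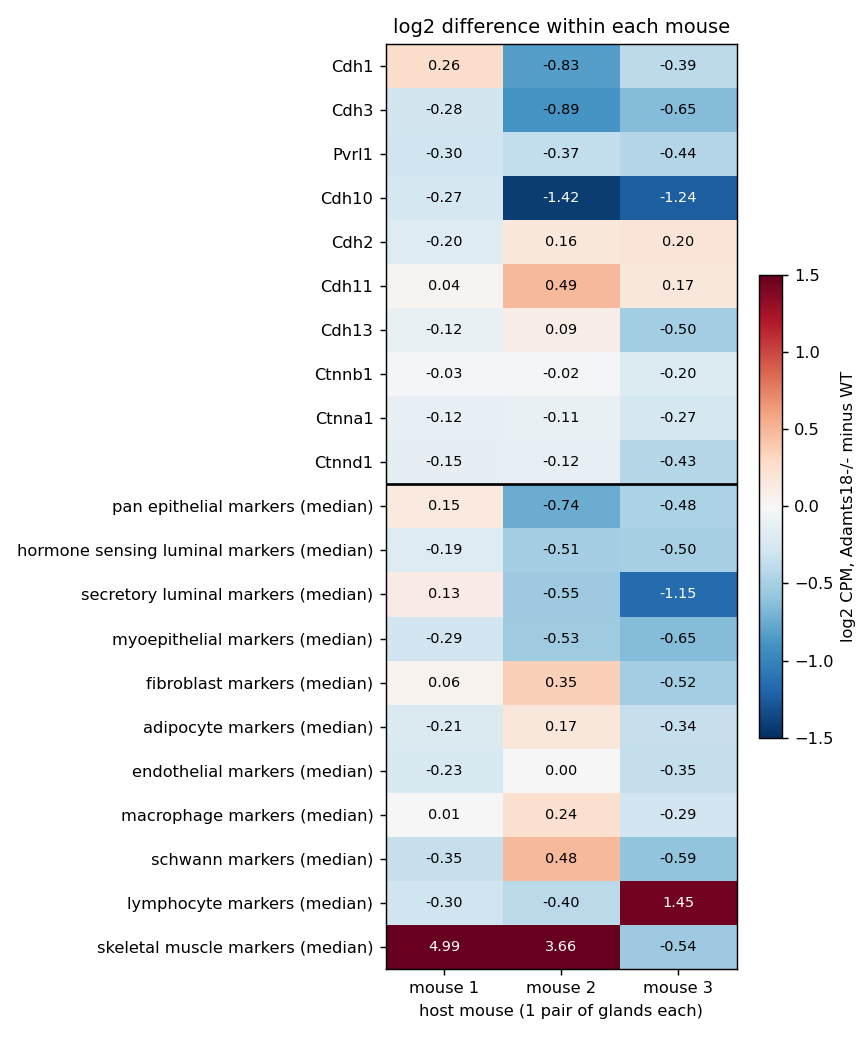
log2 difference in CPM (Adamts18-/- minus WT; red higher, blue lower, colours ending at -1.5 and 1.5) within mice 1, 2 and 3 for each of the 10 genes (top) and for the median of each list of cell type markers (below the line). Cdh1 has the signs of the pan-epithelial median in each mouse, and Cdh3 is negative in each mouse as the myoepithelial median is. The median of the skeletal muscle genes is positive in mice 1 and 2 and negative in mouse 3.

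The catenins are shared by all classical cadherins and were present in all glands at high level. Ctnnb1 encodes β-catenin, which also carries the canonical Wnt signal into the nucleus. It stood at 549.8, 550.3 and 541.9 CPM in the WT glands and at 539.3, 542.1 and 471.4 CPM in the Adamts18-/- glands. The WT glands lay within a few CPM of each other, and of the mutant glands that of mouse 3 was the lowest. The log2 fold change was -0.083 (standard error 0.099, 95% interval -0.34 to 0.18, unadjusted p = 0.441 by edgeR), an interval that reached the lower limit of -0.32 but not the upper limit of 0.32.

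Ctnna1, for αE-catenin, was at 338, 361.9 and 293.8 CPM in the WT glands and at 311.5, 335.1 and 244.3 CPM in the Adamts18-/- glands, a log2 fold change of -0.17 (standard error 0.088, 95% interval -0.40 to 0.066, unadjusted p = 0.123 by edgeR). Ctnnd1, for p120-catenin, was at 258.4, 275.3 and 228.5 CPM and at 232.5, 253.8 and 169.7 CPM, a log2 fold change of -0.23 (standard error 0.10, 95% interval -0.49 to 0.029, unadjusted p = 0.0704 by edgeR). Each of the 3 catenin genes had the lower value in the mutant gland of every mouse, and the difference was the largest in mouse 3 (-0.20 for Ctnnb1, -0.27 for Ctnna1 and -0.43 for Ctnnd1). For every read of Ctnnb1 there were 0.615, 0.658 and 0.542 reads of Ctnna1 in the WT glands and 0.578, 0.618 and 0.518 in the Adamts18-/- glands. Annotated exons of the 3 catenin genes overlap exons of other genes (Lrrtm2 for Ctnna1, Ulk4 and Mir7090 for Ctnnb1, Gm28635 for Ctnnd1). Lrrtm2 and Ulk4 lie on the opposite strand, and without a stated strand setting the reads there cannot be told apart. Mir7090 and Gm28635 lie on the same strand, where no strand setting would separate the reads.

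Other genes of the adherens junction were read from 5 lists, of which 63 genes were tested. None was lower by the thresholds and 2 were higher, Cdh4 and Snai3, beside 1.84% lower and 1.17% higher over all tested genes. Cdh4, Snai3, Pvrl2 and Plekha7 had no overlap between the groups, as had 4.94% of all tested genes. Among the other cadherins, 8 of 16 were tested. Cdh4, for R-cadherin, was at 0.588, 0.571 and 1.07 CPM in the WT glands and at 1.93, 2.06 and 1.90 CPM in the Adamts18-/- glands. The 2 groups did not overlap, and the fitted log2 difference came to 1.46 (standard error 0.28, unadjusted p = 0.00429 by edgeR). Cdh5, the VE-cadherin of endothelium, was the most abundant of the list (118.3 to 210.8 CPM in WT and 96.9 to 213.7 CPM in Adamts18-/- glands, log2 fold change -0.16, unadjusted p = 0.142 by edgeR). The 8 had a median log2 fold change of 0.17. Cdh15, the M-cadherin of muscle precursor cells, named after its values were seen, was at 0.0717, 0.196 and 0.302 CPM in WT and 1.17, 1.22 and 0.163 CPM in Adamts18-/- glands, high in the mutant glands of mice 1 and 2.

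Skeletal muscle markers were high in those same glands. Their summed level was 293.9, 852.8 and 2815 CPM in WT and 11080, 10980 and 1904 CPM in Adamts18-/- glands. Myh4, a fast muscle myosin, was the most abundant, and 0 of the 10 passed the thresholds. Cdh4 was as high in the mutant gland of mouse 3, where muscle markers were below those of its WT gland, as in the mutant glands of mice 1 and 2. Which cells the few Cdh4 reads came from was not tested. Lymphocyte markers stood apart in mouse 3, summing to 125.4 to 156 CPM in the glands of mice 1 and 2 and to 442.1 (WT) and 1396 CPM (Adamts18-/-) in mouse 3.

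Of the other catenins and tail partners, 0 of 18 tested genes passed the thresholds, with a median log2 fold change of -0.16. Lima1, an actin-binding protein that associates with αE-catenin, was the most abundant of these (248.5 to 293.5 CPM in WT and 210.9 to 274.1 CPM in Adamts18-/- glands, log2 fold change -0.12). Of the other nectins, nectin-like molecules and afadin, 0 of 8 passed, with a median of -0.17. Mllt4, which encodes afadin itself, was at 167.5, 203.7 and 152.2 CPM in WT and at 161.3, 184.2 and 117.4 CPM in Adamts18-/- glands (log2 fold change -0.19, standard error 0.093, unadjusted p = 0.0986 by edgeR). On these lists 4 genes had an unadjusted p under 0.05 by edgeR with a fold inside the limits, all of them negative. They are Jup, for plakoglobin (log2 fold change -0.23), Pkp4, for a p120-like protein (-0.20), Ctnnal1, for an α-catenin-like protein (-0.30), and Pvrl2, for nectin 2 (-0.22), and were picked out after their values were seen. Pvrl2 was at 36.2, 39.6 and 38.8 CPM in WT and at 31.9, 33.0 and 33.6 CPM in Adamts18-/- glands, so that its groups did not overlap.

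Of the proteases, phosphatases, kinases and trafficking genes that act on cadherins, 0 of 17 passed, with a median of -0.0093. The most abundant, Adam10, encodes the membrane protease that sheds the outer part of E-cadherin and N-cadherin, and it stood at 170.3 to 198 CPM in WT and 153.2 to 182.5 CPM in Adamts18-/- glands (log2 fold change -0.11). Of the 12 genes for repressors of Cdh1, 1 was higher and none lower, with a median of 0.026. This was Snai3, a lowly transcribed relative of Snail, at 0.229, 0.261 and 0.480 CPM in WT and 0.612, 0.578 and 2.02 CPM in Adamts18-/- glands (log2 fold change 1.57, standard error 0.28, unadjusted p = 0.00323 by edgeR). The groups did not overlap, and the highest gland was the mutant gland of mouse 3. Tcf4, for an E-box-binding factor, was the most abundant of the list (133.8 to 163 CPM in WT and 124.6 to 164.7 CPM in Adamts18-/- glands, log2 fold change -0.01).

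Cdh11, Cdh3, Cdh1 and Cdh13 lie on mouse chromosome 8, in that order, with Adamts18 between Cdh1 and Cdh13. In the GRCm38 annotation Cdh3 (chr8:106510891-106557297) and Cdh1 (chr8:106603351-106670246) are neighbours on the plus strand. Pvrl1, listed there as Nectin1, lies at chr9:43743984-43807461 and Cdh10 at chr15:18818947-19014236, both on the plus strand. Of the 141 tested genes between Cdh11 and Cdh13, these 2 not included, 3 were lower (2.13%) and 0 higher, with a median log2 fold change of -0.0068. Cdh3 and Adamts18, the targeted gene itself, are among the 3 lower genes. Over the whole chromosome 15 of 774 tested genes were lower (1.94%), beside 1.84% of all tested genes. The counts were made on build mm9, and these positions are those of the annotation.

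Scaling to all genes, by TMM, RLE, upper quartile or library total, gave each member the same sign with all 3 mice. Scaling to a marker list raises every gene together, so the members are read here against the median of all genes. Scaled to the 24 pan-epithelial genes, that median over all tested genes moved from 0.00065 to 0.37 in log2 fold change. Cdh1 was then at 0.046, Cdh13 at 0.19, Ctnna1 at 0.20, Ctnnb1 at 0.28 and Ctnnd1 at 0.13, all on the other side of 0 but below the median of all genes, and 0 of 10 members were lower. Only Cdh3 (-0.24), Cdh10 (-0.64) and Pvrl1 (-0.0012) stayed negative, none of them past the thresholds, and Cdh2 and Cdh11 were the members above the median of all genes. Scaled to the myoepithelial genes, which moved that median to 0.50, Cdh3 and Cdh10 were the negative members. Cdh2 (0.55) and Cdh11 (0.73) were then higher by the thresholds, but so were 10310 of the 17345 tested genes.

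**Figure D4:**
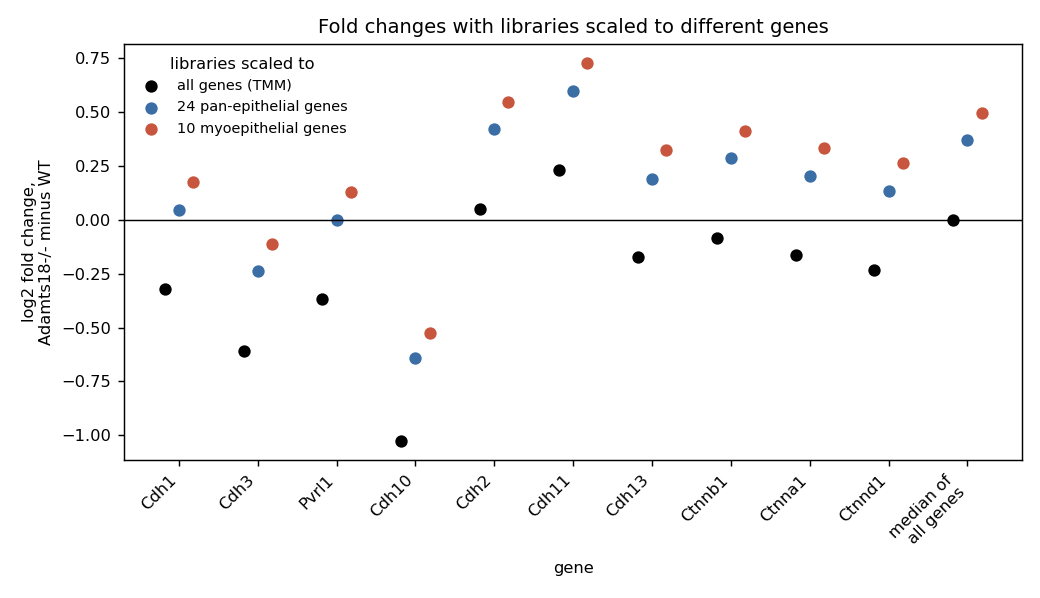
log2 fold change (vertical axis, Adamts18-/- minus WT) of each gene and the median of all tested genes (right) with libraries scaled to all genes (black), to 24 pan-epithelial genes (blue) and to 10 myoepithelial genes (red). The points move up together, the median of all genes from 0.00065 to 0.37 and 0.50, and Cdh3 and Cdh10 stay below 0 under each scaling.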

How the data were processed

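The table deposited by the authors gives raw counts of reads, as whole numbers for each gene symbol, in 6 libraries of single-end 85 bp reads. The submitters' processing notes name bcl2fastq 2.18, TopHat2 2.0.11, featureCounts 1.6.2, edgeR and build mm9. The annotation and the strand setting are not given in the sources used here. Libraries were placed by the genotype and mouse in their labels, and the gland number comes from the same titles. The replicates are separate host mice. The grafts came from different donors and experiments, and effects of host, donor and experiment cannot be told apart within the mouse term.

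Testing used the quasi-likelihood method of edgeR 4.0.16 under R 4.3.3 (TMM factors, filterByExpr with a minimum count of 10). Host mouse was a blocking term, since the glands of a pair share a host and the study removed mouse effects. Deviations from the group means correlated at 0.512, 0.505 and 0.639 between the glands of mice 1, 2 and 3. The median biological coefficient of variation was 16.3%. log2 CPM used a prior count of 2. Alternatives were limma 3.58.1 (voom), DESeq2 1.42.0, RLE, upper quartile and total scaling, scaling to marker genes, other filters, no block and each mouse left out. Scripts were tested on simulated data.

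Positions and exon lengths came from GENCODE M21 (GRCm38), and coding ends were aligned with scores of 1 for a match, -1 for a mismatch, -2 to open and -0.5 to extend a gap. Count ratios used a pseudocount of 0.5, and likeness used genes of at least 5 CPM on average. Named genes are the 10 members, listed genes past the thresholds, the most abundant gene of each list and the 3 genes most like Cdh1, Cdh3, Cdh11 and Cdh13. A gene that this rule selects is left out of the text. The members and lists were chosen with earlier results of these data known. Ajuba was listed but is not analysed here.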

Additional observations from a re-analysis of the deposited data

How the results depend on the processing

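With 3 pairs the spread between mice limits what can be called, and with TMM scaling, the block and all 3 mice no gene passed adjustment over all genes by edgeR. Over 13 alternatives the adjusted p ranged from 0.118 to 1 for Cdh3, 0.170 to 1 for Pvrl1 and 0.162 to 1 for Cdh10. Cdh3, Cdh10 and Pvrl1 were lower by the thresholds under DESeq2, limma-voom, RLE, upper quartile and total scaling and both other filters. Without the replicate block, that is without the pairing by mouse, 1 of 10 members was lower (Cdh3, unadjusted p = 0.0414 by edgeR), Cdh10 was at -1.13 and Pvrl1 at -0.37, neither past the thresholds, and 125 genes in all were lower. It changed no other call of a member.

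With libraries scaled to the pan-epithelial genes, 0 members were lower, 27 genes in all were lower, 981 higher and 244 passed by adjusted p. The log2 fold changes of Cdh1 (0.0456), Cdh13 (0.19), Ctnna1 (0.20), Ctnnb1 (0.28) and Ctnnd1 (0.13) changed sign, and Cdh3 (-0.24), Cdh10 (-0.64) and Pvrl1 (-0.001235) did not pass. With scaling to the myoepithelial genes, an alternative added after the values of that list were seen, 0 members were lower and 2 higher, with 41 genes lower, 10310 higher and 5971 past the adjusted p. Cdh1 (0.17), Cdh13 (0.32), Ctnna1 (0.33), Ctnnb1 (0.41), Ctnnd1 (0.26) and Pvrl1 (0.13) changed sign, Cdh2 (0.55, adjusted p = 0.0522 by edgeR) and Cdh11 (0.73, adjusted p = 0.0106 by edgeR) were higher, and Cdh3 (-0.11) and Cdh10 (-0.53) did not pass. Both scalings shift all genes up together, by 0.37 and 0.50 in the median.

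The count of all genes higher was 340 with DESeq2, 345 with limma-voom and 352 without a filter on low counts, and 71 genes passed by adjusted p with DESeq2. With each mouse left out in turn, 214 to 481 genes were lower, 182 to 581 higher and 0 to 268 passed by adjusted p. The most were lower without mouse 1 (481). The most were higher (581) and passed by adjusted p (268) without mouse 3. Cdh3 (unadjusted p 0.00598 to 0.0436 by edgeR) and Pvrl1 (0.0067 to 0.0345) passed without each mouse. The log2 fold change of Cdh1 ranged from -0.61 to -0.068, that of Cdh10 from -1.37 to -0.79, and that of Cdh2 from -0.01175 to 0.18, with -0.00218 without mouse 2. The causes were not tested.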

Other observations

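Of the luminal lists, hormone-sensing luminal genes had 5 of 10 lower and none higher, beside 1.84% lower over all tested genes. The median log2 fold change of the list was -0.32. Cited1, a transcriptional coregulator of estrogen-responsive cells, was at 67.0 against 32.3 CPM (log2 fold change -1.06), Prom1 at 77.3 against 47.6 CPM (-0.73), Prlr, the prolactin receptor gene, at 375.4 against 249.5 CPM (-0.59), Foxa1, a partner of the estrogen receptor, at 72.9 against 52.7 CPM (-0.46) and Wnt4, a progesterone target, at 26.1 against 19.9 CPM (-0.37). The most abundant, Ly6a, was at 269.3 to 435.4 CPM in WT and 321.2 to 414.4 CPM in Adamts18-/- glands. Of 9 tested secretory luminal genes 1 was lower, Elf5, the regulator of alveolar cells (101.9 against 67.7 CPM, log2 fold change -0.57). The median of the 9 was -0.46, and Mfge8, a milk fat globule protein, was the most abundant at 406.1 to 662.2 CPM in WT and 382.7 to 465.7 CPM in Adamts18-/- glands. The other pan-epithelial genes past the thresholds beside Krt19 were Krt7 (log2 fold change -0.39), Krt8 (-0.43), Krt18 (-0.52), Spint1 (-0.47) and St14 (-0.43), the last a membrane protease and Spint1 its inhibitor.

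Of 10 Schwann cell genes only Egr2, a transcription factor of myelination that other cells also use, was higher (23.5 against 42.3 CPM, log2 fold change 0.77). The median of that list was -0.12, and Pmp22, its most abundant gene, was at 320 to 468.9 CPM in WT and 207.5 to 455.8 CPM in Adamts18-/- glands. Of 10 macrophage genes none passed, with a median of -0.01, and Lyz2, the macrophage lysozyme, was at 642.2 to 1165 CPM in WT and 702.7 to 1407 CPM in Adamts18-/- glands. Of 10 lymphocyte genes none passed, with a median of 0.36. Ptprc, the leukocyte phosphatase, was at 549.2 CPM in the Adamts18-/- gland and 203.5 CPM in the WT gland of mouse 3, and at 86.5 to 104.8 CPM in the other 4 glands.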
